A study of Mus musculus with 18 samples.

Results

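The 37 genes described here encode the glucose and lactate transporters, the enzymes and regulators of glycolysis, the oxygen-sensing proteins and a panel of genes known to respond to low oxygen. They were chosen by name, for their known place in the pathway and with earlier results of these data known, and looked up in the array annotation with older symbols allowed (Ero1l for Ero1a, Pkm2 for Pkm). Of these, 36 were measured among the 28919 genes on the arrays. Gapdh, the glyceraldehyde-3-phosphate dehydrogenase, had no probe that could be assigned to it alone and was left out.

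Glycolysis splits glucose into pyruvate, which lactate dehydrogenase turns into lactate for export when it is not burned in mitochondria. The transcription factor HIF-1 couples this pathway to oxygen: prolyl hydroxylases mark its alpha subunit for destruction when oxygen is present, and in its absence HIF-1 binds short DNA elements and raises glucose transporters, glycolytic enzymes and factors such as VEGF-A. Tumours often run glycolysis at a high rate whether or not oxygen is short.

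The tissue came from female FVB/N mice, an inbred strain used widely for mammary tumour models, and all samples were whole flash-frozen pieces. Normal mammary gland gave 2 RNA samples. NIC tumours gave 2 RNA samples, each a pool of 5 tumours, and ErbB2 knock-in (KI) mice gave 5 RNA samples, each from a single tumour. ErbB2 is a receptor tyrosine kinase that drives mammary tumours when overactive. What NIC stands for, the promoter or Cre behind either model, the age of the mice and the tumour stage are details not given in the sources used here. Each RNA was compared on 2 arrays, with the dyes exchanged, with a commercial mouse reference RNA. The labels name each tumour but not litters or cages, so the p-values cover no more than the differences among these RNA samples. Levels are log2 ratios of sample over reference, the mean of the dye pair, and 1 unit is a doubling. A level can be set against the same gene in another sample, not against another gene.

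The 18 arrays had medians near 0, and the dye pair of an RNA correlated at r = 0.816 to 0.940 over genes. Tissue markers followed the labels. The median of 11 luminal epithelium markers was 0.09 and 0.15 in the normal glands and 2.56 to 3.16 in the tumours, and that of 12 adipocyte markers was 3.79 and 3.14 in the glands and −0.01 to 0.59 in the tumours. The 5 KI tumours and the other 4 RNA samples lie in separate value tables with separate platform records, so table and KI group cannot be told apart in any comparison that involves KI.

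The HIF-1 element has the core ACGTG or GCGTG. RefSeq gives promoter windows (build GRCm38.p6) for 34 of the 37 genes, 50 windows in all, and the 250 bases before each transcript start were searched on both strands. Overlapping matches, such as the palindrome CACGTG, were counted as 1 place. A match was present in 40 of the 50 windows (80%), against 38.6% of all 32851 windows, and in any window of 31 of the 34 genes (91.2%), against 41.5% of all genes. The stricter ACGTG occurred in 50% of the members' windows and 16.6% of all windows. Both cores hold a CG pair, and base composition was not matched. The members were chosen for their known place in this pathway, so their higher share is not independent of that choice. A match is a description of letters and not a site shown to be bound.

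The following 7 stretches are shown as examples: 5 genes that rose and 1 that fell in the NIC pools, and Ldha, whose groups overlapped. They were picked with the values known and are not a ranking. All read 5′ to 3′ towards the transcript start, with each match in capitals. Slc2a1 lies at chr4:119108495-119108744 (plus strand), Aldoc at chr11:78322823-78323072 (plus), Egln3 at chr12:54203875-54204124 (minus), Ero1a at chr14:45318573-45318822 (minus), Ddit4 at chr10:59951771-59952020 (minus), Ldha at chr7:46845554-46845803 (plus) and Pfkfb3 at chr2:11502091-11502340 (minus, the second of its 2 windows). The first 5 are the genes that rose, and Pfkfb3 is the one that fell.
Slc2a1: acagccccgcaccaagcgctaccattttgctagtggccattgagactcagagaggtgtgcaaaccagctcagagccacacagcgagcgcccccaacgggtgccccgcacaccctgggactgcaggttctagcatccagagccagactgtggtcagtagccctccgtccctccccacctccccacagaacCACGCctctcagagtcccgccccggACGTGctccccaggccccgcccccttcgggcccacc
Aldoc: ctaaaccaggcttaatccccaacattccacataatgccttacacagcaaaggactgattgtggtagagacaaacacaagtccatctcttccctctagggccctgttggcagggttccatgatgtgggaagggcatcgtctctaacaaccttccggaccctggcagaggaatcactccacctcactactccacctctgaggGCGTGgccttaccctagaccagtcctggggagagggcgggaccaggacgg
Egln3: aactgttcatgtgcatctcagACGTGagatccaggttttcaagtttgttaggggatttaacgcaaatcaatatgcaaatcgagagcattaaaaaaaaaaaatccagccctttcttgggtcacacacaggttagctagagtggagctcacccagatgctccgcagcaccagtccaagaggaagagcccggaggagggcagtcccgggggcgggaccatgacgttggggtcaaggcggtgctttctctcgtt
Ero1a: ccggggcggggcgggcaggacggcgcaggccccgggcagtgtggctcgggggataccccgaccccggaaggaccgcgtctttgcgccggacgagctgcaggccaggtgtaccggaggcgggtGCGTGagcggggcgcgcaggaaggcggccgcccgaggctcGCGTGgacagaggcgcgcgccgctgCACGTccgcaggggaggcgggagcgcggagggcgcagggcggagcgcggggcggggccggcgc
Ddit4: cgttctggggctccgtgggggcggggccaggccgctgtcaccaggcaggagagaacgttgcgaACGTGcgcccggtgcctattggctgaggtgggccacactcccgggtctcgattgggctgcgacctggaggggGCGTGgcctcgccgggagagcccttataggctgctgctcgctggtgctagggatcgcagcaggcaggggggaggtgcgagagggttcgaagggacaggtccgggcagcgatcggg
Ldha: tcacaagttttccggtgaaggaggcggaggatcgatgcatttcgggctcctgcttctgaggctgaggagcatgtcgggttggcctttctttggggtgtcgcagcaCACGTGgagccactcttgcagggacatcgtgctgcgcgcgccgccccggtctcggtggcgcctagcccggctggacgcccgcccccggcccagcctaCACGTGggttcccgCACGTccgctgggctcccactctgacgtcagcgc
Pfkfb3: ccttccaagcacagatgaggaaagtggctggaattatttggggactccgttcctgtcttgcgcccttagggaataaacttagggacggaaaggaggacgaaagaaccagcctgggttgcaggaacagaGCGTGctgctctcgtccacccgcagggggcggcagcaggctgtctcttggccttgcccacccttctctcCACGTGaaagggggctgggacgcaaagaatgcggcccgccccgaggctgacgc
Slc2a1 holds ACGTG 36 bases before the start and the reverse complement of GCGTG at 61, Ero1a holds 3 matched places at 128, 88 and 63 bases, and Egln3 holds 1 at 229 bases. Ldha holds 3 ACGTG places, at 145, 48 and 34 bases, which is as many matched places as Ero1a. Among members that rose in the NIC pools 10 of 12 windows held a match, among those that fell 3 of 3, and among those not past the test 26 of 34.

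The NIC pools carried higher levels of glucose transporter 1 (Slc2a1), 3 glycolytic enzymes, the prolyl hydroxylase Egln3 and 4 hypoxia response genes than the normal glands. The bifunctional regulators Pfkfb3 and Pfkfb4 and glucose transporter 3 (Slc2a3) were lower. In limma, with Benjamini-Hochberg adjustment over all 28919 genes, 9 of the 36 members rose and 3 fell. Of all genes 8.81% rose and 9.81% fell. All 36 members had a signal above the median gene on the KI arrays, and among such genes 12% rose and 9.03% fell. The median difference over the members was 0.79, against −0.06 over all genes. The size of the differences depends on scaling, and so does the sign of several that were not called. With all arrays scaled to 1 spread, Slc2a1 went from 2.30 to 1.13, Ero1a from 3.71 to 2.43 and Pfkfb3 from −3.03 to −1.86, all still called. Aldoc went the other way, from 3.62 to 4.04. Bnip3l lost the call (limma adjusted p = 0.0506), and Pfkl (higher) and P4ha2 (lower) gained it. P4ha1, not called, changed sign (0.83 to −0.50). Slc16a3, Eno2, Pdk1, Bnip3, Ndrg1 and Higd1a, also not called, likewise turned from positive to negative, and Ldha turned from negative to positive. In whole tissue, fewer cells of a type and less RNA per cell cannot be told apart. Without either NIC pool limma called no gene at all (6403 and 6988 of all genes had an unadjusted p under 0.05). Without normal gland 1 it called 19 members and 4232 of all genes, against 5385 with all samples.

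**Figure D1:**
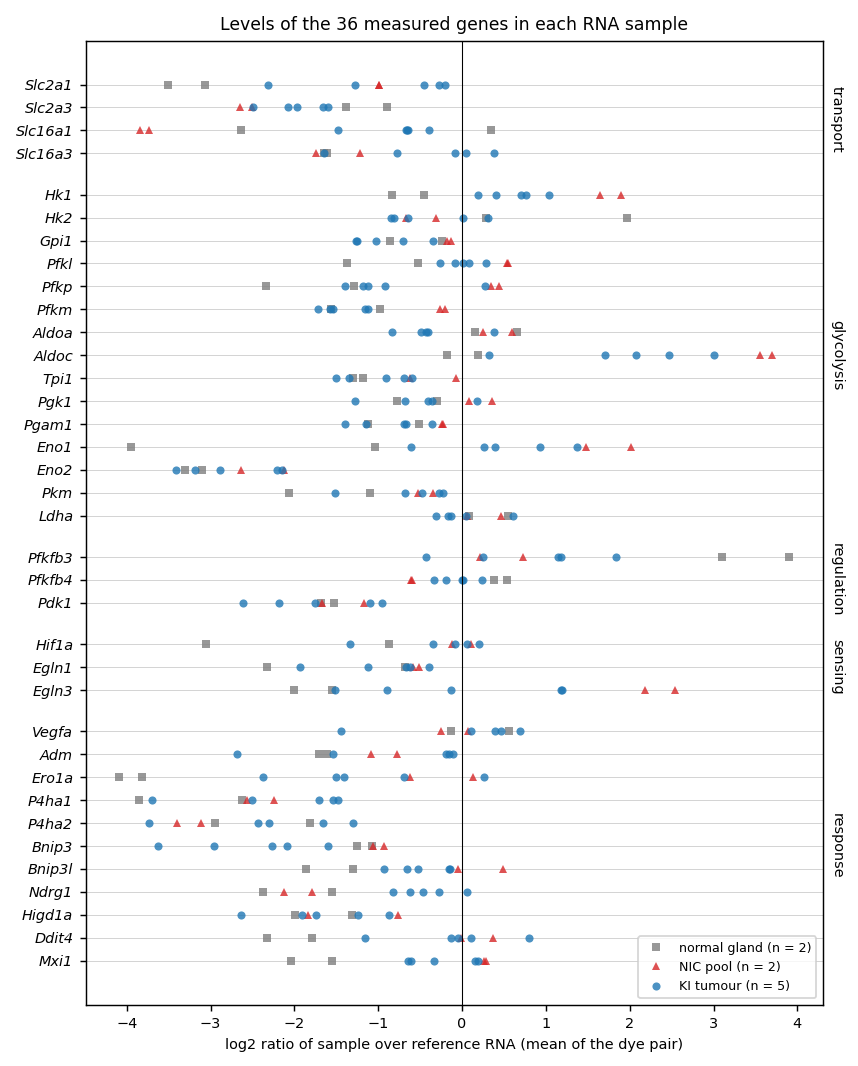
Log2 ratio of sample over reference RNA for each of the 36 measured genes (rows, grouped by role) in 2 normal glands (grey squares), 2 NIC pools (red triangles) and 5 KI tumours (blue circles); each point is the mean of a dye pair. Slc2a1, Aldoc, Egln3 and Ero1a have both glands to the left of both pools, and Pfkfb3 has both glands, at 3.11 and 3.90, to the right of every tumour.

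The KI tumours differed from the normal glands in 14 members. Slc2a1, Hk1, Pfkl, Aldoc, Eno1, Ero1a, Bnip3l, Ndrg1, Ddit4 and Mxi1 rose, and Slc2a3, Hk2, Pfkfb3 and Pfkfb4 fell. Of all genes 17.8% rose and 24.9% fell, and of those above the median signal 24.9% rose and 22% fell, so the members' 10 rises of 36 are near that background and their 4 falls are fewer than it. The median difference over the members was 0.50 (−0.03 over all genes). That direction depends on scaling. With all arrays scaled to 1 spread the members' median was −0.11 and 4 were called, Hk1 higher and Slc2a3, Pfkm and Bnip3 lower. After quantile normalization the median was −0.02, with 9 higher and 3 lower. Without normal gland 2, 7 of the members and 9716 of all genes passed the test, against 12347 genes with all samples.

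The KI tumours differed from the NIC pools in 4 members: the lactate transporter Slc16a1 and the stress gene Ndrg1 rose, and Hk1 and the muscle-type phosphofructokinase Pfkm fell. Of all genes 2.92% were higher and 3.29% lower, and of those above the median signal 3.51% and 3.18%, so 2 of 36 each way is near the background. The median difference over the members was −0.38, against 0.00 over all genes. After quantile normalization 2 members were called, Pfkm and Bnip3, both lower. Without either NIC pool none was called, although 504 and 594 of all genes were (4617 and 4024 at an unadjusted p under 0.05). Leaving out KI tumour 4 or KI tumour 5 left 2 members and 1 called, with 1258 and 882 of all genes (1793 with all samples). The normal glands and NIC pools enter both of their comparisons, so the 3 sets of differences share samples.

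**Figure D2:**
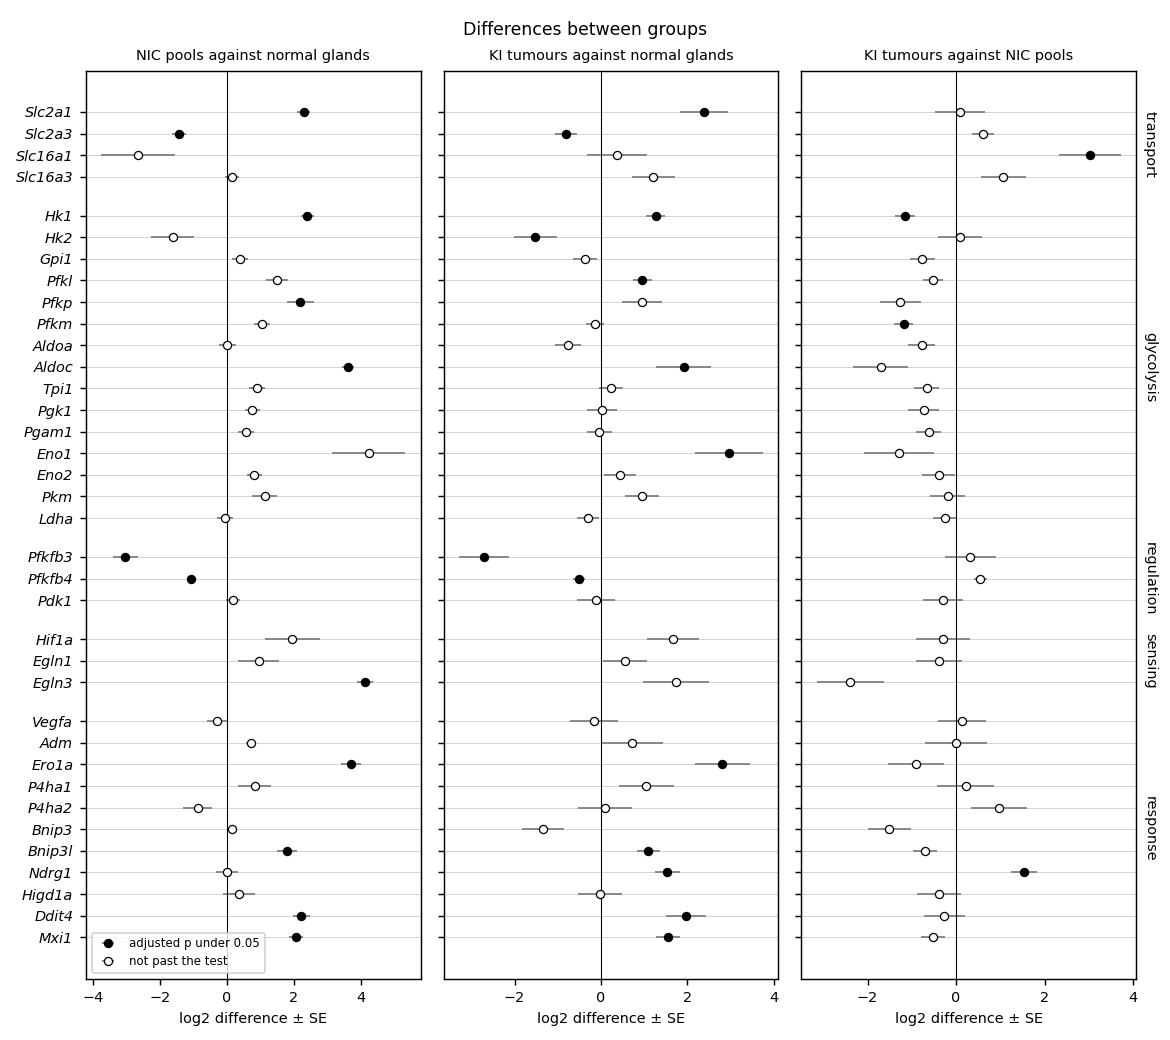
Log2 difference between group means for each gene (rows) in the 3 comparisons, with standard errors as bars; filled points have a limma adjusted p under 0.05 over all 28919 genes. Filled points number 12, 14 and 4 from left to right, and Egln3 and Ero1a lie at 4.13 and 3.71 in the left panel.

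Slc2a1 encodes GLUT1, the basal glucose transporter of the cell surface. Its level was −3.51 and −3.07 in the 2 normal glands, −0.99 and −0.99 in the NIC pools and −0.21, −2.32, −0.27, −0.45 and −1.28 in KI tumours 1 to 5. Every tumour sample lay above both glands, and KI tumour 2 was the lowest of the tumours. The difference was 2.30 ± 0.19 (SE, limma adjusted p = 0.0135) for NIC pools against normal glands, a 4.93-fold rise, and 2.38 ± 0.56 (SE, limma adjusted p = 0.0122) for KI tumours. KI tumours and NIC pools differed by 0.08 ± 0.56 (SE, limma adjusted p = 0.957), less than the spread among KI tumours (SD 0.90, n = 5). Scaled to 1 spread, the KI difference was 1.21 and no longer called (adjusted p = 0.182).

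Slc2a3 encodes GLUT3, a high-affinity glucose transporter best known from neurons. It went the other way, from −1.39 and −0.90 in the glands to −2.50 and −2.65 in the pools and −1.66, −2.49, −2.08, −1.97 and −1.60 in KI tumours 1 to 5. All tumours lay below both glands. The falls were −1.43 ± 0.21 (SE, limma adjusted p = 0.0308) and −0.82 ± 0.25 (SE, limma adjusted p = 0.0332). A dimmer second probe gave 0.19 for NIC pools and 0.51 for KI tumours against normal glands. Both falls thus rest on 1 of 2 probes.

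The monocarboxylate transporters carry lactate. Slc16a1 (MCT1) stood at 0.35 and −2.63 in the 2 glands, −3.85 and −3.74 in the pools and −0.67, −0.65, −1.48, −0.65 and −0.40 in KI tumours 1 to 5. Both pools lay below all KI tumours and below both glands, and the glands themselves were 2.98 apart. KI tumours exceeded NIC pools by 3.03 ± 0.69 (SE, limma adjusted p = 0.0479). The call was lost without any single KI tumour or NIC pool (adjusted p up to 0.223), and the 2 dimmer probes gave 2.21 and 0.06. Slc16a3 (MCT4), the exporter of glycolytic cells, differed by 0.15 ± 0.21 (SE, limma adjusted p = 0.649) in the pools and 1.21 ± 0.51 (SE, limma adjusted p = 0.0914) in KI tumours, neither past the test.

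Of the 15 measured enzymes of the pathway, 3 rose in the NIC pools (Hk1, Pfkp and Aldoc), none fell, and 12 did not pass the test, with a median difference of 0.90 over the 15. Of genes above the median signal 12% rose and 9.03% fell in that comparison. In KI tumours against normal glands 4 rose (Hk1, Pfkl, Aldoc and Eno1) and Hk2 fell, with a median of 0.23, where 24.9% of such genes rose and 22% fell, so the 4 of 15 are near the background. Set against the NIC pools, 2 enzymes were lower in KI tumours (Hk1 and Pfkm) and none was higher. The background there was 3.18% lower and 3.51% higher among genes above the median signal. The difference was negative for 14 of the 15, with a median of −0.73, and positive for 50.8% of all genes. This comparison crosses value tables, and the probes of Ldha, Pgk1, Pgam1 and Aldoa were saturated on some or all KI arrays.

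Hk1 encodes hexokinase 1, which commits glucose to the cell by phosphorylating it. It read −0.83 and −0.45 in the glands, 1.89 and 1.65 in the pools and 0.19, 0.40, 1.04, 0.77 and 0.70 in KI tumours 1 to 5. The 3 groups did not overlap, with the pools at the top and the KI tumours in between. The pools were higher than the glands by 2.41 ± 0.19 (SE, limma adjusted p = 0.013), and the KI tumours were higher by 1.26 ± 0.23 (SE, limma adjusted p = 0.00422) and lower than the pools by 1.15 ± 0.23 (SE, limma adjusted p = 0.0323). Its 6 probes gave −0.10 to 3.68 for NIC pools against normal glands. The rise over the glands in KI tumours was called in all 19 alternative analyses. Hk2, the inducible hexokinase of muscle and fat, fell in KI tumours against the glands, −1.52 ± 0.49 (SE, limma adjusted p = 0.0408), while the glands themselves were 1.69 apart and KI tumour 1 overlapped them. That call held in 2 of 7 analyses that left out an RNA sample, with differences of −2.36 to −0.68, the smallest without normal gland 1. In the pools its difference was −1.62 ± 0.65 (SE, limma adjusted p = 0.163).

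The phosphofructokinases catalyse the committed step of glycolysis, and the 3 genes gave different results. Pfkp, the platelet-type gene, was at −1.29 and −2.34 in the glands, 0.43 and 0.34 in the pools and −1.18, −1.13, 0.27, −0.92 and −1.40 in KI tumours 1 to 5. Both pools were above both glands, and of the KI tumours only tumour 3 came close to the pools. The rise in the pools was 2.20 ± 0.40 (SE, limma adjusted p = 0.0435), with 0.03 and 0.81 from 2 dimmer probes. Pfkm, the muscle-type gene, was at −1.57 and −0.99, −0.21 and −0.26 and −1.57, −1.54, −1.16, −1.12 and −1.72 in the same order of samples. Here all KI tumours lay below both pools, by 1.19 ± 0.21 (SE, limma adjusted p = 0.0231), and overlapped the glands, −0.14 ± 0.21 (SE, limma adjusted p = 0.621). Pfkl, the liver-type gene, rose in KI tumours against normal glands by 0.96 ± 0.23 (SE, limma adjusted p = 0.0124) and differed by 1.49 ± 0.33 (SE, limma adjusted p = 0.0597) in the pools.

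Aldoc encodes aldolase C, the aldolase best known from brain. Its level was −0.18 and 0.19 in the glands, 3.55 and 3.69 in the pools and 0.32, 1.70, 2.47, 3.01 and 2.08 in KI tumours 1 to 5. KI tumour 1 lay just above the glands and tumour 4 nearest the pools, a range of 2.69 among the KI tumours. The rise was 3.62 ± 0.18 (SE, limma adjusted p = 0.00825) in the pools, 12.3-fold, with 3.82 from a second probe. In KI tumours it was 1.91 ± 0.63 (SE, limma adjusted p = 0.043), and that call held in 1 of 7 analyses that left out an RNA sample. Aldoa, the major aldolase, did not follow, at 0.02 ± 0.24 (SE, limma adjusted p = 0.963) in the pools and −0.76 ± 0.30 (SE, limma adjusted p = 0.0809) in KI tumours.

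Several probes of the pathway reached the limit of the scanner. Ldha, which makes lactate from pyruvate, read 0.55 and 0.08 in the glands, 0.47 and 0.06 in the pools and −0.13, −0.17, 0.61, −0.31 and 0.05 in KI tumours 1 to 5. The groups overlapped throughout. The difference was −0.05 ± 0.25 (SE, limma adjusted p = 0.898) for the pools and −0.30 ± 0.26 (SE, limma adjusted p = 0.389) for the KI tumours. This probe was saturated in the reference channel of all 10 KI arrays and in the sample channel of 7, and a dimmer probe gave 0.85 for the pools. Pgk1 and Pgam1 were likewise saturated in the reference channel of all 10 KI arrays, and Aldoa in that of 5, and a saturated spot gives only a bound. Scanner flags of the normal and NIC arrays were not used here.

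Eno1, the main enolase, showed the widest difference of any member, 4.24 ± 1.10 (SE, limma adjusted p = 0.0783), in NIC pools against normal glands, but the 2 glands were 2.91 apart and it did not pass the test. In KI tumours it rose by 2.96 ± 0.79 (SE, limma adjusted p = 0.0197). Without normal gland 2 that rise was 1.51 and not called (adjusted p = 0.135). A dimmer Eno1 probe gave 0.02 for the pools. The remaining enzymes, Gpi1, Tpi1, Pgk1, Pgam1, Eno2 and Pkm, differed by 0.39 to 1.14 in the pools and by −0.37 to 0.95 in KI tumours against normal glands, none past the test.

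Pfkfb3 and Pfkfb4 set fructose-2,6-bisphosphate, the activator of phosphofructokinase. Pfkfb3 stood at 3.11 and 3.90 in the glands, 0.22 and 0.73 in the pools and 1.18, −0.43, 1.84, 1.14 and 0.25 in KI tumours 1 to 5. All 7 tumour samples lay below both glands. It fell by 3.03 ± 0.36 (SE, limma adjusted p = 0.0223) in the pools, 8.18-fold, and by 2.71 ± 0.58 (SE, limma adjusted p = 0.00847) in KI tumours, with −0.38 and −1.50 from 2 dimmer probes for the pools. Pfkfb4 read 0.38 and 0.54, −0.60 and −0.61 and 0.24, −0.19, 0.02, −0.33 and 0.00 in the same order. It fell by 1.06 ± 0.11 (SE, limma adjusted p = 0.0189) and by 0.51 ± 0.15 (SE, limma adjusted p = 0.0247), and the KI tumours lay between the other groups. Pdk1, the kinase that shuts pyruvate out of the mitochondrial oxidation step, differed by 0.18 ± 0.22 (SE, limma adjusted p = 0.587) and −0.12 ± 0.45 (SE, limma adjusted p = 0.853), neither past the test.

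Hif1a encodes the oxygen-regulated subunit of HIF-1, which is controlled mainly through protein stability, which an mRNA level does not measure. The mRNA was at −0.87 and −3.06 in the glands, 0.10 and −0.12 in the pools and 0.20, −1.34, −0.09, 0.06 and −0.35 in KI tumours 1 to 5. The glands were 2.19 apart, and KI tumour 2 fell between them. The differences, 1.95 ± 0.82 (SE, limma adjusted p = 0.176) and 1.66 ± 0.61 (SE, limma adjusted p = 0.0609), did not pass the test. Without KI tumour 2 the latter was 1.92 and did (adjusted p = 0.0311).

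Egln3 encodes PHD3, a prolyl hydroxylase that is itself induced by HIF. Its level was −1.55 and −2.0 in the glands, 2.18 and 2.53 in the pools and −0.89, −1.52, 1.19, 1.19 and −0.14 in KI tumours 1 to 5. The pools were the highest samples, KI tumours 3 and 4 came next, and KI tumour 2 was at the level of the glands. The rise in the pools was 4.13 ± 0.23 (SE, limma adjusted p = 0.00931), 17.6-fold, and it was called with the sample in either dye and under each scaling. In KI tumours the difference was 1.74 ± 0.76 (SE, limma adjusted p = 0.102) against the glands and −2.39 ± 0.76 (SE, limma adjusted p = 0.115) against the pools, with the widest range of any member among the tumours (2.71). Without KI tumour 2 the difference from the glands was 2.11 and passed the test (adjusted p = 0.0346). Egln1 (PHD2), the main oxygen sensor, differed by 0.95 ± 0.62 (SE, limma adjusted p = 0.33) in the pools, and its dimmer probe by 3.02.

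Of the 11 hypoxia response genes 4 rose in the NIC pools (Ero1a, Bnip3l, Ddit4 and Mxi1) and none fell. Of genes above the median signal 12% rose and 9.03% fell there. In KI tumours these 4 and Ndrg1 rose and none fell, against 24.9% and 22% of such genes. The median differences over the 11 were 0.73 and 1.05.

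Ero1a encodes the oxidoreductase that forms disulfide bonds in the endoplasmic reticulum. It was at −4.09 and −3.82 in the glands, −0.62 and 0.13 in the pools and −1.41, −2.37, 0.26, −0.70 and −1.50 in KI tumours 1 to 5. All tumour samples lay above both glands, and KI tumour 3 was the highest. The rise was 3.71 ± 0.31 (SE, limma adjusted p = 0.0136) in the pools, 13.1-fold, and 2.81 ± 0.63 (SE, limma adjusted p = 0.0099) in KI tumours, with 2.97 from a second probe for the pools. Scaled to 1 spread, the KI difference had an adjusted p of 0.193.

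Ddit4 encodes REDD1, an inhibitor of mTORC1. Its values were −2.32 and −1.79 in the glands, −0.01 and 0.36 in the pools and −0.05, −1.16, −0.13, 0.80 and 0.11 in KI tumours 1 to 5. Every tumour sample lay above both glands, with tumour 4 highest and tumour 2 lowest. It rose by 2.23 ± 0.26 (SE, limma adjusted p = 0.0214) in the pools and by 1.97 ± 0.46 (SE, limma adjusted p = 0.0113) in KI tumours. Mxi1, a repressor that opposes Myc, was at −1.55 and −2.04, 0.29 and 0.26 and 0.15, −0.61, −0.64, 0.19 and −0.34 in the same order. All tumour samples lay above both glands here too, and it rose by 2.07 ± 0.20 (SE, limma adjusted p = 0.0176) and 1.55 ± 0.27 (SE, limma adjusted p = 0.00367). A dimmer Mxi1 probe gave −0.22 for the pools.

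Bnip3l and Bnip3 encode related receptors that send mitochondria to autophagy, and their differences were not alike. Bnip3l was at −1.30 and −1.86 in the glands, −0.05 and 0.49 in the pools and −0.94, −0.52, −0.16, −0.14 and −0.66 in KI tumours 1 to 5. It rose by 1.80 ± 0.30 (SE, limma adjusted p = 0.0382) in the pools and by 1.10 ± 0.27 (SE, limma adjusted p = 0.0147) in KI tumours. The tumours lay above both glands in each case. A dimmer Bnip3l probe gave 1.05 for the pools and 0.39 for KI tumours. The rise in the pools was called in none of the 4 analyses that left out an RNA sample. Bnip3 differed by 0.16 ± 0.12 (SE, limma adjusted p = 0.392) in the pools and by −1.34 ± 0.49 (SE, limma adjusted p = 0.0611) in KI tumours, where all 5 tumours lay below both glands. With all arrays scaled to 1 spread the latter was −2.18 with an adjusted p of 0.0177.

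Ndrg1, a stress-induced gene linked to growth restraint, was higher in KI tumours than in NIC pools, a comparison that crosses value tables. It was at −2.37 and −1.55 in the glands, −2.12 and −1.79 in the pools and 0.06, −0.83, −0.62, −0.47 and −0.28 in KI tumours 1 to 5. All KI tumours lay above every other sample, and the pools overlapped the glands, 0.01 ± 0.34 (SE, limma adjusted p = 0.992). KI tumours were higher than the pools by 1.53 ± 0.29 (SE, limma adjusted p = 0.0264) and higher than the glands by 1.54 ± 0.29 (SE, limma adjusted p = 0.00458). After quantile normalization the difference from the pools was 1.24 with an adjusted p of 0.0881. Leaving out an RNA sample gave differences from the pools of 1.37 to 1.69, with the call lost in most of these fits.

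Vegfa, the main vessel growth factor of the response, read 0.55 and −0.13 in the glands, −0.25 and 0.07 in the pools and 0.39, −1.44, 0.69, 0.47 and 0.10 in KI tumours 1 to 5. The glands overlapped both tumour groups. KI tumour 2 lay below every other sample, while the other 4 KI tumours lay above both pools. The differences were −0.30 ± 0.30 (SE, limma adjusted p = 0.509) and −0.17 ± 0.55 (SE, limma adjusted p = 0.832), neither past the test, and 2 dimmer probes gave 0.84 and 1.58 for the pools. Adm (the vasodilator adrenomedullin), P4ha1 and P4ha2 (collagen prolyl hydroxylases) and Higd1a (a mitochondrial protein) differed by −0.87 to 0.83 in the pools and by −0.02 to 1.05 in KI tumours, none past the test.

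The outcome for a gene depended on its probe. Of the 20 members with more than 1 probe, the probes differed by over 1 log2 unit for 9 in NIC pools against normal glands and fell on both sides of 0 for 7. Both probes rose by over 1 log2 unit for Aldoc (3.62 and 3.82), Ero1a (3.71 and 2.97) and Bnip3l (1.80 and 1.05). Both lay near 0 for Aldoa (0.02 and −0.04). Which probe reads which transcript was not tested. All 12, 14 and 4 calls in the 3 comparisons had the same sign with the sample in Cy3 and in Cy5.

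**Figure D3:**
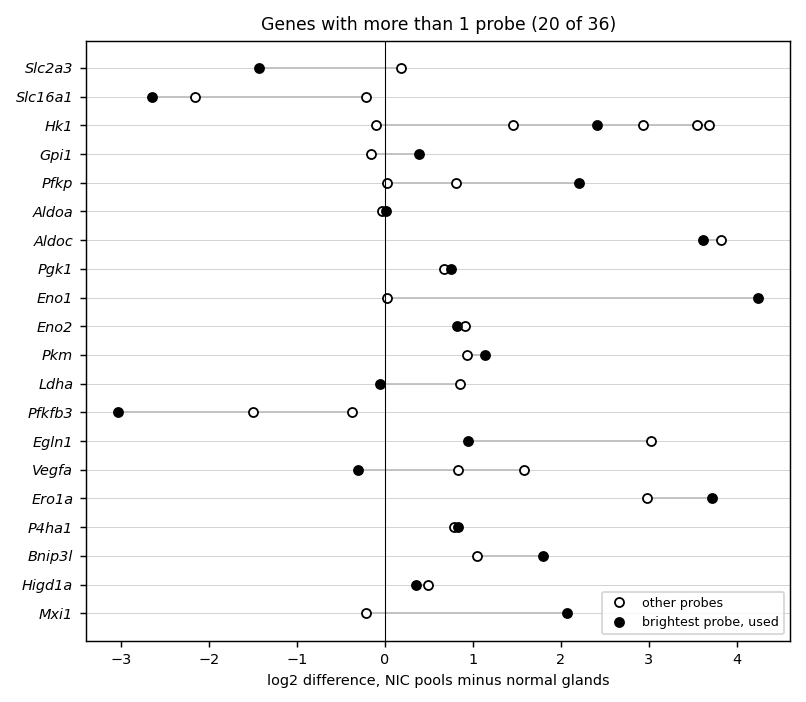
Log2 difference of NIC pools minus normal glands for every probe of the 20 members with more than 1 probe; the filled point is the brightest probe, used throughout, and open points are the others. The 6 Hk1 probes run from −0.10 to 3.68, and the 2 Eno1 probes lie at 0.02 and 4.24.

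The glands differed from each other by more than 1 log2 unit in 8 of the 36 members, and gland 1 was the higher in 7 of them. These were Slc16a1 (2.98), Eno1 (2.91), Hif1a (2.19), Hk2 (1.69), Egln1 (1.64), P4ha1 (1.23) and Pfkp (1.05), while P4ha2 was higher in gland 2. This gap was named after the values were seen. The share of all genes with such a gap was not counted, so the count is not shown to be particular to the members. For Egln1, P4ha1 and Pfkp the gap stayed under 1 with the sample in Cy5 and exceeded 1 in Cy3. The Cy3 array of gland 2 had the widest interquartile range of the 18 arrays (0.970). None of the 8 members but Pfkp passed the test in NIC pools against normal glands.

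The 5 KI tumours varied in these genes more than in most. The median SD over tumours was 0.59 for the 36 members, 0.15 for all genes and 0.22 for genes above the median signal. For each gene the Cy5 minus Cy3 difference was also averaged, with its sign, over all RNA samples. The median size of that mean was 0.23 for members and 0.19 for all genes. Opposite signs cancel in such a mean, so it is not the difference within a pair and cannot be set against the SD. For Pfkfb3, as an example, the mean was 0.04 and single pairs ran from −1.49 to 0.78. Egln3, Aldoc and Ero1a had the widest ranges among the KI tumours, 2.71, 2.69 and 2.63, and Adm came next with 2.58. Pfkl and Pfkfb4 had the narrowest ranges, 0.54 and 0.57.

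KI tumour 2 was the lowest of the 5 in 24 of the 36 members (66.7%) and the highest in none. Over all genes it was lowest in 26.4% and highest in 24.2%, and lowest in 30.0% of genes above the median signal. By role it was lowest in all 3 sensing genes, 9 of 11 response genes, 3 of 4 transporters, 2 of 3 regulators and 7 of 15 enzymes. Its median distance from the median of the other 4 tumours was −0.79 over the members and −0.01 over all genes. Adm stood at −0.15, −2.69, −0.11, −0.19 and −1.54 in KI tumours 1 to 5, P4ha1 at −1.48, −3.70, −1.70, −1.54 and −2.51 and Bnip3 at −2.26, −3.63, −2.09, −1.60 and −2.96, with tumour 2 lowest in each. KI tumour 3 was the highest in 16 members (44.4%) and KI tumour 4 in 11 (30.6%), against 24.8% and 16.3% of all genes.

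The tumours were singled out after their values were seen, so these counts are a description. KI tumour 2 was the lowest in 26 members with the sample in Cy3 and in 24 with it in Cy5. Its Cy3 array and the Cy5 array of KI tumour 3 were the 2 of 10 KI arrays whose scanner images were read out on another day. Several of its marker medians also stood apart from the other KI tumours. They were 0.89 for skeletal muscle (−0.75 to −0.13 in the other KI tumours), 0.28 for neutrophils (0.89 to 2.76), −1.38 for fibroblasts (−0.38 to 0.51), 1.25 for macrophages (1.96 to 2.14) and 0.94 for endothelium (1.82 to 2.25). The erythroid median was level with the lowest other tumour, and the luminal epithelium (2.92), basal epithelium, adipocyte and lymphocyte medians lay within the range of the others. Their part in the result was not tested. Without KI tumour 2, 18 members were called against the normal glands, 14 higher and 4 lower, in an analysis that called 12066 of all 28919 genes (12347 with the tumour included). Slc16a3, Pkm, Hif1a, Egln3, P4ha1 and Bnip3 then passed the test, and Hk2 and Aldoc did not.

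**Figure D4:**
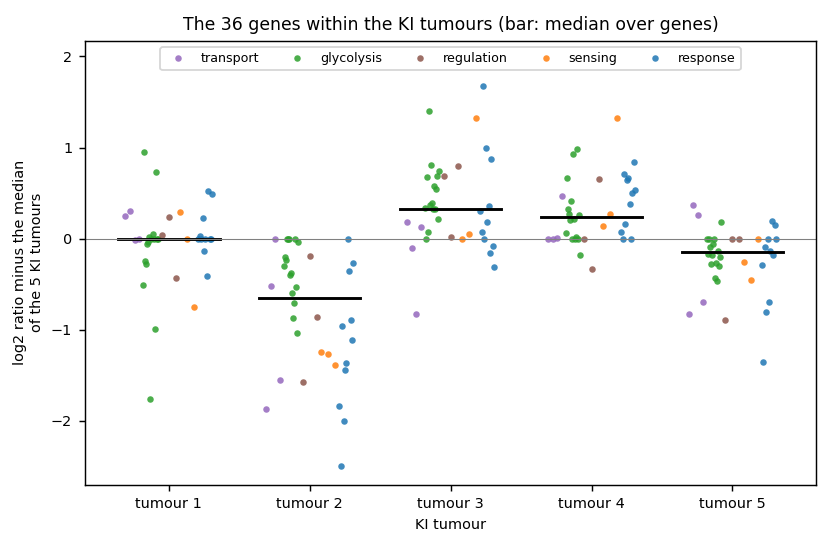
Log2 ratio of each of the 36 genes in each KI tumour, minus the median of that gene over the 5 tumours; points are genes coloured by role and the black bar is the median over genes. Tumour 2 has no point above 0 and is the lowest tumour for 24 genes, and tumour 3 is the highest for 16.

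Further genes of the same and adjoining pathways came from lists written beside the members. Of 31 measured genes of the wider hypoxia response, 10 rose in the NIC pools and 4 fell, and 14 rose and 6 fell in KI tumours against normal glands. Among all genes 8.81% rose and 9.81% fell in the pools, and 17.8% rose and 24.9% fell in KI tumours. The largest rises in the pools were Car12, a carbonic anhydrase of the cell surface (5.37 ± 0.17, SE, adjusted p = 0.00773), and Cited2, a brake on HIF transcription (2.63 ± 0.16, adjusted p = 0.0104). Gbe1, the glycogen branching enzyme, and Stc2 fell, with differences of −2.55 and −2.41. KI tumour 2 was the lowest of the KI tumours in 19 of these 31 genes as well. It was not so in 2 adjoining lists. In 22 other genes of glycolysis and sugar transport it was lowest in 3 and highest in 5. In 27 genes of pyruvate oxidation and the TCA cycle it was lowest in 3 and highest in 11. The SE and adjusted p here are limma's, over all genes.

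Among 22 other genes of glycolysis and sugar transport, mostly tissue-restricted forms, 1 rose in the NIC pools and 5 fell. Slc2a5, a fructose transporter, and Slc2a4, the insulin-responsive transporter of fat and muscle, changed by −5.56 and −5.16, and Pgam2 rose by 1.56. Of 27 genes of pyruvate oxidation and the TCA cycle none rose in the pools and 11 fell, with a median difference of −1.42. In KI tumours 1 rose and 21 fell, with a median of −1.49. Over all genes 8.81% rose and 9.81% fell in the pools, and 17.8% rose and 24.9% fell in KI tumours. Pdk4, a brake on pyruvate dehydrogenase that is high in fat, fell in the pools (−7.42), as did Mpc1, a subunit of the mitochondrial pyruvate carrier (−2.32). In the pentose phosphate pathway 1 of 7 genes fell in the pools (G6pdx, −1.93), and in gluconeogenesis Pck1 (−3.59) and Pcx (−2.42) fell, 2 of 7.

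Markers of other cell types moved in the same comparisons. The shares of all genes were 8.81% higher and 9.81% lower in the pools, and 17.8% higher and 24.9% lower in KI tumours. A count of 2 of 10 in KI tumours is near that background. In the NIC pools 9 of 12 adipocyte markers fell (Plin4, −5.61, and Lep, −4.51) and none rose. Of the luminal epithelium markers 8 of 11 rose (Epcam, 3.87, and Spint2, 3.22), and 4 of 10 lymphocyte, 6 of 10 fibroblast, 6 of 10 endothelium and 2 of 10 skeletal muscle markers fell. Macrophage markers were split, 2 higher and 1 lower of 10, and none of 8 neutrophil markers passed the test. Of basal epithelium markers 1 of 10 rose and 4 fell, and 1 of 6 erythroid markers fell. In KI tumours against normal glands 10 of 11 luminal markers rose, and 9 of 12 adipocyte, 9 of 10 lymphocyte, 4 of 10 fibroblast, 2 of 10 endothelium, 2 of 10 skeletal muscle and 2 of 6 erythroid markers fell. Basal markers were split there, 3 higher and 5 lower of 10, and 2 of 10 macrophage and 1 of 8 neutrophil markers rose. In NIC pools the adipocyte list had the largest median shift of these lists (−3.18), with medians of 3.79 and 3.14 in the glands and −0.01 to 0.59 in all tumours. Slc2a4, Slc2a5, Pdk4, Pck1 and Pfkfb3 are known to be expressed in fat as well. The part of cell makeup in the members' differences was not tested.

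**Figure D5:**
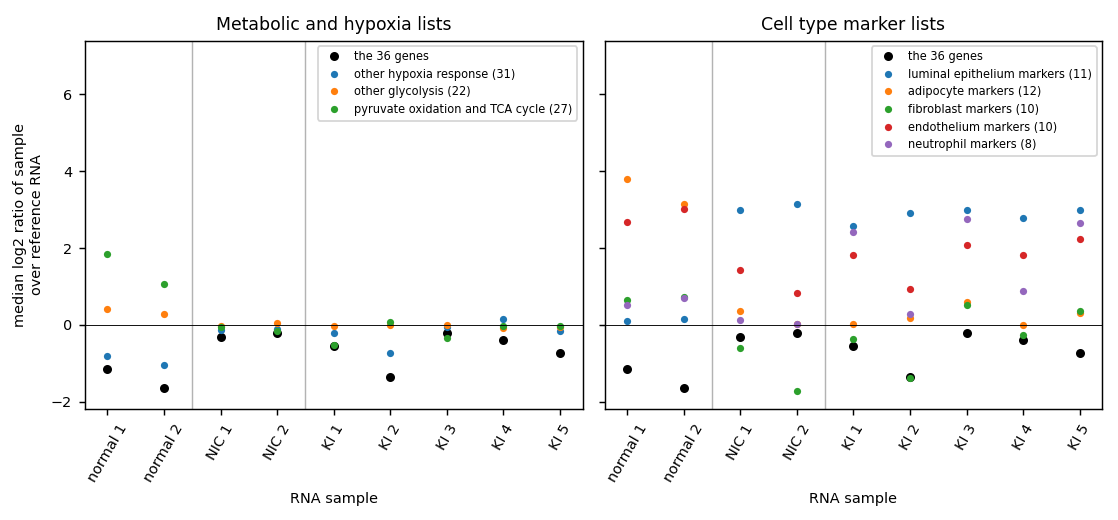
Median log2 ratio of sample over reference RNA for each gene list (number of genes in brackets) in each of the 9 RNA samples; black points are the 36 genes. The 36 genes run from −1.65 in normal gland 2 to −0.21 in NIC pool 2, KI tumour 2 stands at −1.37, and adipocyte markers are high in the glands alone.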

How the data were processed

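RNA of whole tissue was amplified once with T7 polymerase, labelled with Cy3 and Cy5 and hybridised to 2-colour Agilent arrays, per the labels' protocols. The authors deposited a value table of log2 ratios of sample over reference; their normalization is not given in the sources used here, beyond RMA, which appears in the submitters' processing notes without a stated role. For KI arrays, direction was checked against the deposited scanner files. These hold spot intensity and a log10 ratio from Agilent Feature Extraction, dye-normalized per the file headers. The correlation was r = 0.982 to 0.988 with values recomputed by normexp and loess, and r = 0.941 to 0.953 with the scanner log ratio. The slope of deposited on recomputed values was 1.19 to 1.25, so the deposited KI values were spread wider than the recomputed ones. For normal and NIC arrays direction and scale were taken by analogy with the KI table. The labelling protocols of some KI arrays name the opposite dyes to their label fields, and the label fields, which the scanner ratios bear out, were used.

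Dye pairs were averaged, so the RNA is the replicate. After control spots were left out, 41174 probes were named by accession (20716), current symbol (5039), older symbol (5279) or the name in the file (10140). The brightest probe on KI arrays stood for each of 28919 genes. Groups were compared with limma 3.58.1 in R 4.3.3 by two-sided moderated tests (lmFit, then eBayes), with p-values adjusted by Benjamini-Hochberg over all genes and a threshold of 0.05. NIC pools against normal glands used those 4 RNA samples. Both KI comparisons came from 1 fit of all 9 and cross the value tables. The interquartile range of the arrays was 0.761 to 0.970 in normal glands and 0.422 to 0.562 in KI tumours, so arrays scaled to 1 spread and quantile normalization were tried, besides other probe rules, each dye alone, arrays with the RNA as a random block (with a dye term, chosen after seeing the data), brighter genes, recomputed KI values and leaving out each RNA. The number of arrays limits the precision.

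In simulated data with 50 genes per step, the fit of NIC pools against normal glands (28919 genes) called 46% of genes raised by 2 log2 units and 32% of those lowered by 2. KI tumours against normal glands gave 90% and 88%. In each simulation 28719 genes were unchanged, while the data called many more (2547 higher and 2838 lower in the pools against the glands). The adjustment was therefore stricter in the simulation. Its spread per gene was averaged over the 3 groups. These percentages do not give the sensitivity of the real comparisons. Values in every sample are given for members called in NIC pools against normal glands or in KI tumours against NIC pools, for the 3 with the widest KI range, and for Slc2a1, Ldha, Hif1a and Vegfa. Of each other list at most the 2 largest called rises and falls are named. Members and lists were chosen with earlier results of these data known.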

Additional observations from a re-analysis of the deposited data

Results flagged for a closer look

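Among the 36 genes, 3 had 1 KI tumour far from the other 4, measured as the gap to the nearest tumour over the whole range, past the critical value of Dixon's test for 5 samples. KI tumour 3 was lowest for Slc16a1, with a ratio of 0.75, and highest for Pfkp, with 0.713. KI tumour 2 was lowest for Vegfa, with 0.722. Chance marks about 1 in 20 groups.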

How the results depend on the processing

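With 12 members called in NIC pools against normal glands, the count was 7 with the sample in Cy3 only, 19 with the RNA as a random block and 21 with a dye term added, which was chosen after seeing the data. Leaving out 1 RNA gave 0 to 19. Of all genes, 5385 were called, 2050 with Cy3 only, 10641 and 10000 with the random block without and with the dye term, and 10402 in 1 fit of all 9 RNA samples. The 14 members called in KI tumours against normal glands became 4 with arrays scaled to 1 spread and 7 to 18 with 1 RNA left out. Of all genes, 12347 were called, and 7963 after that scaling. The 4 members called in KI tumours against NIC pools became 2 with Cy5 only, 2 after quantile normalization, 9 with the random block and 8 with the dye term, and 0 to 5 with 1 RNA left out. Of all genes, 1793 were called, 4015 and 3585 with the random block without and with the dye term, 3710 with KI values by normexp and loess, and 1081 after quantile normalization. The cause was not tested. Per gene, 392, 605 and 644 of the values under the alternatives stayed on the same side of the threshold in the 3 comparisons. Another 34, 47 and 24 lost the call, 42, 32 and 16 gained it, and none turned a call around. Direction was compared only where a value was called in the main or the alternative analysis. Values called in neither could change sign. Eno2 in the pools did so, from 0.82 to −0.53 with arrays scaled to 1 spread. Where 1 group has a single sample, that sample is assumed to vary like the others. Saturated probes limit Ldha, Pgk1 and Pgam1. No paired analysis was possible because the replicate numbers only name the samples.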
